A study of Mus musculus with 6 samples.

Results

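Ion channel genes were examined in sorted cells, enriched for endothelium, from the mouse embryo. They were chosen by symbol, from genes whose names begin with Kcn (potassium channels), Cacn (voltage-gated calcium channels), Scn (voltage-gated sodium channels), Trp (transient receptor potential channels), Hcn (pacemaker channels) or Clcn (chloride channels and transporters). Of 18193 genes on the array, 146 carried such a name on a probe set of their own. A gene was described in detail when its mean exceeded 5 in at least 1 tissue, which kept 39 genes, or 26.7% of the 146. By the same threshold 11133 of all genes, or 61.2%, passed. The level on these arrays therefore chose the 39 genes, and that they are above 5 somewhere is no finding. In the heart tube 31 of them exceeded 5, in caudal-half cells 31 and in yolk sac cells 27.

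The cells came from mice of mixed background, with no treatment and no allele named in the labels beyond Wt in the sample names, at embryonic day 9.5, and were sorted fresh for CD31 and against CD41 and CD45, which enriches endothelial cells and is meant to leave out platelet-lineage and blood cells. All 3 groups share this stage, strain and sort and differ by tissue: the heart tube, the caudal-half tissue of the embryo and the yolk sac. Each tissue has 2 independent biological replicates, each on its own Affymetrix array, 6 arrays in all. No source used here gives the number of embryos behind an array. Levels are natural logs of the deposited signals, read as the authors' RMA log2 values because they span 0.899 to 14.6. If the deposited signals are linear instead, each difference and its error grow by a factor of 1.44 and the p-values stay as they are. A level depends on its probes as well as on its RNA, so levels are compared between tissues within a probe set and not between genes. Probe sets for bacterial RNAs read 1.33 to 4.03 and give the range in which a signal is weak.

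Ion channels are membrane proteins that open a pore for selected ions. Potassium channels hold the membrane potential negative and end action potentials, voltage-gated sodium and calcium channels start and shape them in excitable cells, and accessory subunits set the gating and trafficking of the pore. Endothelial cells do not usually fire action potentials. There, inward rectifier and calcium-activated potassium channels set the driving force for calcium entry, TRP channels let calcium in after receptor activation, and calcium in turn drives nitric oxide release and permeability. ClC proteins include plasma membrane chloride channels and the chloride-proton exchangers of endosomes and lysosomes.

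The promoters of 4 genes are shown because these genes had the widest differences between tissues or, for Kcnj2, a higher level in heart tube cells than in both other tissues. Each window runs from 250 bases before to 50 after the farthest upstream start of the gene in RefSeq (GRCm38.p6), 5′ to 3′ on the gene's strand, with CG dinucleotides in capitals. Kcnq5 lies on the minus strand at chr1:21962601-21962900, Kcnj2 on the plus strand at chr11:111065914-111066213, Kcne3 on the plus strand at chr7:100176420-100176719 and Trpc6 on the plus strand at chr9:8543892-8544191.
Kcnq5: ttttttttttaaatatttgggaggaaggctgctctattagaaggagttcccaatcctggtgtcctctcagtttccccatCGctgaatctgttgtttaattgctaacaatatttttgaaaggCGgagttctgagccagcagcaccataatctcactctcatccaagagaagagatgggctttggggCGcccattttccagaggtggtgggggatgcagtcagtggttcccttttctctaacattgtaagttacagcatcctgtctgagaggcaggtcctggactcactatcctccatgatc
Kcnj2: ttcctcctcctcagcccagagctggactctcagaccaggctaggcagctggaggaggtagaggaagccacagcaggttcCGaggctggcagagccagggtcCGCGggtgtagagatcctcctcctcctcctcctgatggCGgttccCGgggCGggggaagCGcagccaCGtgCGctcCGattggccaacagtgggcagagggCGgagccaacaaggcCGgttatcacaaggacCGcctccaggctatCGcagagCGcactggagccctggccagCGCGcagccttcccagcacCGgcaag
Kcne3: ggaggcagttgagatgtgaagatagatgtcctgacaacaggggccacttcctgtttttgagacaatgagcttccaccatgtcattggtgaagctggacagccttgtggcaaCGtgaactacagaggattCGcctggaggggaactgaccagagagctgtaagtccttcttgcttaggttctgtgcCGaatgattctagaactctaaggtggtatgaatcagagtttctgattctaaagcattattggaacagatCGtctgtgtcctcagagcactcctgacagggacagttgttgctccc
Trpc6: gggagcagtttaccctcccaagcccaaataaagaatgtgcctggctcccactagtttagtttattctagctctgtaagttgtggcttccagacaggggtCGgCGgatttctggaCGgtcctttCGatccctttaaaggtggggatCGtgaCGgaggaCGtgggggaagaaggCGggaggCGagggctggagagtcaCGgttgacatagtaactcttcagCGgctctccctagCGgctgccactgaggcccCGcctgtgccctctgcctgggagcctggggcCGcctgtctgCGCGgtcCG
The Kcnq5 and Kcne3 windows hold 3 and 4 CG dinucleotides, and the Kcnj2 and Trpc6 windows hold 18 and 17. Kcnq5 and Kcne3 have 2 annotated starts each, and the window at the other start is not shown. Kcnj2 and Trpc6 have 1 each.

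Promoters matched by symbol for 31 of the 39 genes and for 116 of the 146. The median window of the 31 had 17 CG dinucleotides and a GC content of 59.7%, against 7 and 52.7% over the windows of all 27025 genes. Over the 116 the medians were 10.5 and 58.3%. The 31 were also chosen by level, while the 116 and the 27025 were not. The GATA motif AGATAA, or TTATCT for the other strand, stood in 1 of the 31 windows (Kcnip4) and in 4 of the 116, and 11.4% of all genes' windows held it. The ETS motif CCGGAA, or TTCCGG for the other strand, stood in 2 of the 31 (Clcn4 and Clcn6) and in 8 of the 116, beside 15.2% of all genes' windows. Neither motif lies in the 4 printed windows. A match is a description of the letters and not of a bound site.

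Replicate arrays correlated at r = 0.981 to 0.986 over all probe sets and arrays of different tissues at 0.946 to 0.969. Pecam1, which encodes CD31, read 9.49 to 10.09 on the 6 arrays. Ptprc, which encodes CD45, read 2.33 to 2.85, inside the bacterial range. Itga2b, which encodes CD41, read 6.42 to 6.93 on the embryo arrays and 8.37 and 8.18 on the yolk sac arrays. All 12 pan-endothelial markers lay above the bacterial range on at least 1 array, but their level differed between tissues. Their mean level was 9.02 and 9.13 on the heart tube arrays, 9.86 and 9.95 on the caudal-half arrays and 10.17 and 10.25 on the yolk sac arrays. Of the 12, 5 were called lower and 1 higher in heart tube than in caudal-half cells (median difference -0.77), 8 lower and none higher in heart tube than in yolk sac cells (-0.93), and 1 higher and 2 lower in caudal-half than in yolk sac cells (-0.24). Markers of other cells moved with the tissues. Of 15 cardiomyocyte markers, 7 were higher in heart tube cells than in caudal-half cells and 9 higher than in yolk sac cells; their mean level was 6.67 and 6.69 on the heart tube arrays, 4.99 and 5.02 on the caudal-half arrays and 4.70 and 4.47 on the yolk sac arrays, with Nkx2-5 and Ryr2 in the bacterial range throughout. Of 10 visceral endoderm markers, 8 were higher in yolk sac cells than in heart tube cells, and their mean level was 9.0 and 8.96 on the yolk sac arrays against 4.25 to 4.66 on the other 4. Epithelial markers (5 genes) averaged 4.92 and 5.09 in heart tube cells, 7.06 and 6.96 in caudal-half cells and 8.44 and 8.53 in yolk sac cells. Of 9 mesenchymal markers, 5 were higher and none lower in heart tube than in caudal-half cells (median difference 2.21), and 2 were higher and 5 lower in caudal-half than in yolk sac cells (-2.23). Of 10 erythroid markers, 5 were lower than in yolk sac cells in the heart tube (1 higher, median -1.76) and 5 in caudal-half cells (none higher, -1.41), with Hba-a1 and Gata1 in the bacterial range throughout. Neural markers, 15 measured, had 1 called higher and 2 lower in heart tube than in caudal-half cells (median -0.19), with Tubb3 higher in the heart tube and Sox2 and Nes higher in caudal-half cells. The part of these cells in the differences below was not tested. In such a sorted population, fewer cells of a type and less RNA per cell cannot be told apart.

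The 39 genes varied to different degrees between tissues. Their 3 tissue means spanned less than 0.5 in 17 genes, 0.5 to 1 in 13 and 1 or more in 9 (Cacna1e, Kcne3, Kcnj2, Kcnk1, Kcnk5, Kcnk6, Kcnq5, Trpc6 and Trpm4). The median span was 0.56, close to the median of the largest gap between replicates of a gene, 0.53, and in 19 genes the span was smaller than that gap. Spans and gaps were not computed over all genes, so whether they are particular to channel genes was not tested. The highest tissue mean fell in heart tube cells for 12 genes, in caudal-half cells for 15 and in yolk sac cells for 12. In 23 genes all 3 tissue means exceeded 5.

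**Figure D1:**
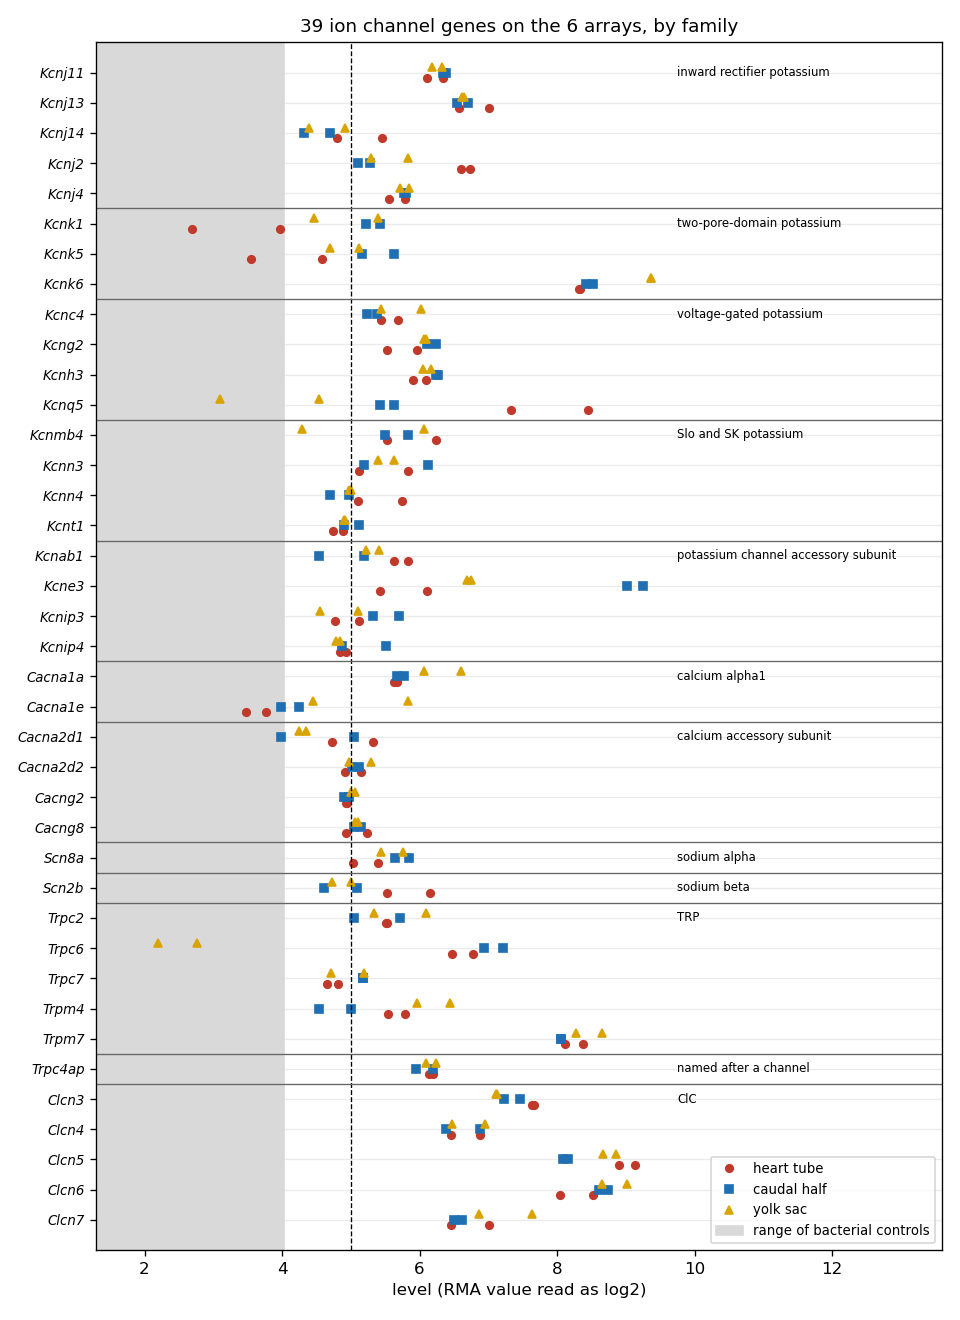
Level (read as RMA log2) of each of the 39 ion channel genes on each of the 6 arrays, 1 point per array, coloured by tissue. Trpc6 is the gene whose yolk sac points (2.76 and 2.20) stand far below the other 4, Kcne3 the gene whose caudal-half points (9.02 and 9.25) stand far above them, and in 19 genes the tissue means span less than the largest replicate gap.

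Inward rectifier channels pass potassium more easily into the cell than out and stabilise the resting potential. Kcnj2 encodes Kir2.1, the main strong inward rectifier of endothelium and of ventricular muscle. It read 6.60 and 6.74 in heart tube cells, 5.10 and 5.28 in caudal-half cells and 5.30 and 5.83 in yolk sac cells. Both heart tube arrays lay above all 4 others. The heart tube was higher than the caudal-half tissue by 1.48 ± 0.22 (limma difference ± SE, n = 2 per tissue, adjusted p = 0.0159) and higher than the yolk sac by 1.11 ± 0.22 (adjusted p = 0.0244). Both caudal-half arrays lay below both yolk sac arrays, but that difference did not pass (-0.37, adjusted p = 0.381). Without either heart tube array or either caudal-half array the first adjusted p was 0.061 to 0.0995 at differences of 1.39 to 1.57, and without either heart tube array or the first yolk sac array the second was 0.0858 to 0.126.

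Kcnj5, a subunit of the acetylcholine-activated channel of the atrium, stayed under 5 in every tissue mean and is thus outside the 39. It read 4.71 and 5.11 in heart tube cells, 3.19 and 2.96 in caudal-half cells and 2.66 and 2.56 in yolk sac cells, the latter 4 arrays in the bacterial range. Its heart tube level was higher by 1.83 ± 0.20 (adjusted p = 0.00503) and by 2.30 ± 0.20 (adjusted p = 0.00116). A second Kcnj5 probe set read 2.63 to 3.66, within the bacterial range, and differed by 0.22 and -0.11; with the mean of both probe sets the Kcnj5 differences were 1.03 and 1.10. The partner subunit Kcnj3 was in the bacterial range on every array. Kcnj8, the pore of the vascular ATP-sensitive channel, read 2.09 to 2.75, also within it.

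The other 4 inward rectifiers with a mean over 5 did not pass the test in any comparison. Kcnj11, the pore of the ATP-sensitive channel of pancreas and heart muscle, read 6.34 and 6.11 in heart tube cells, 6.38 and 6.34 in caudal-half cells and 6.18 and 6.33 in yolk sac cells. Kcnj13, a low-conductance rectifier known from transporting epithelia, read 6.57 and 7.01, then 6.55 and 6.70, then 6.62 and 6.65, in the same order of tissues. Kcnj4, a strong rectifier known from brain, read 5.79 and 5.55, then 5.81 and 5.77, then 5.84 and 5.72. These 3 genes were level across the tissues. Kcnj14 (Kir2.4), known from brain, read 5.45 and 4.80 in heart tube cells, the only tissue with its mean over 5, 4.70 and 4.32 in caudal-half cells and 4.92 and 4.39 in yolk sac cells.

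Tandem pore domain potassium channels leak potassium at rest. Kcnk6 encodes TWIK-2, a member found in vascular tissue and, in the cell, in endosomes and lysosomes. It read 9.37 on both yolk sac arrays, 8.34 and 8.31 in heart tube cells and 8.42 and 8.52 in caudal-half cells. The yolk sac lay above the 4 embryo arrays, with the heart tube lower by -1.05 ± 0.16 (adjusted p = 0.00885) and the caudal-half tissue lower by -0.90 ± 0.16 (adjusted p = 0.0195). The 2 embryo tissues differed by -0.14 (adjusted p = 0.682). Without either heart tube array the adjusted p against the yolk sac was 0.0579 or 0.0595, and without any 1 of the caudal-half or yolk sac arrays the caudal-half adjusted p was 0.0681 to 0.0975, at differences of -0.96 to -0.85.

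Kcnk1 (TWIK-1), which gives very small currents and is often held inside the cell, exceeded 5 in caudal-half cells alone. It read 3.97 and 2.69 in heart tube cells, 5.43 and 5.22 in caudal-half cells and 4.47 and 5.39 in yolk sac cells. The heart tube difference from the caudal-half tissue was -2.0 ± 0.47 and did not pass. Kcnk5 (TASK-2), an acid-sensitive leak channel, likewise read 4.59 and 3.54 in heart tube cells, 5.16 and 5.63 in caudal-half cells and 5.12 and 4.69 in yolk sac cells. Its heart tube difference from the caudal-half tissue was -1.33 ± 0.37, also not passed. In both genes the heart tube replicates lay further apart than those of the caudal-half tissue.

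Of 30 voltage-gated potassium channel genes, 4 had a tissue mean over 5. Kcnq5 encodes a slowly activating channel of the M-current family, known from neurons and from vascular smooth muscle. Its probe set read 8.45 and 7.33 in heart tube cells, 5.64 and 5.43 in caudal-half cells and 3.10 and 4.54 in yolk sac cells. The tissues did not overlap: both heart tube arrays were highest and both yolk sac arrays lowest. The heart tube exceeded the caudal-half tissue by 2.36 ± 0.53 (adjusted p = 0.0594, not passed) and the yolk sac by 4.07 ± 0.53, the latter a description, since the yolk sac mean of 3.82 ± 1.02 (SD, n = 2) lay under the threshold. Replicates lay further apart in these 2 tissues than in caudal-half cells.

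The Kcnq5 gene has 3 probe sets, and the rule used only the brightest. A second read 6.34 and 6.64 in heart tube cells against 3.80 and 3.84 in caudal-half cells and 3.89 and 3.91 in yolk sac cells. There the heart tube was higher by 2.67 ± 0.18 and by 2.58 ± 0.18, and the other 4 arrays lay between 3.80 and 3.91. These differences are also a description, since both other tissues lay under the threshold there. The third read 4.61 and 4.18 in heart tube cells, 3.22 and 2.82 in caudal-half cells and 3.79 and 2.23 in yolk sac cells. Its heart tube differences of 1.37 ± 0.49 and 1.38 ± 0.49 did not pass. All 3 probe sets had their highest values in heart tube cells, while a caudal-half level above the yolk sac appeared on the brightest probe set alone as a separation of arrays.

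**Figure D2:**
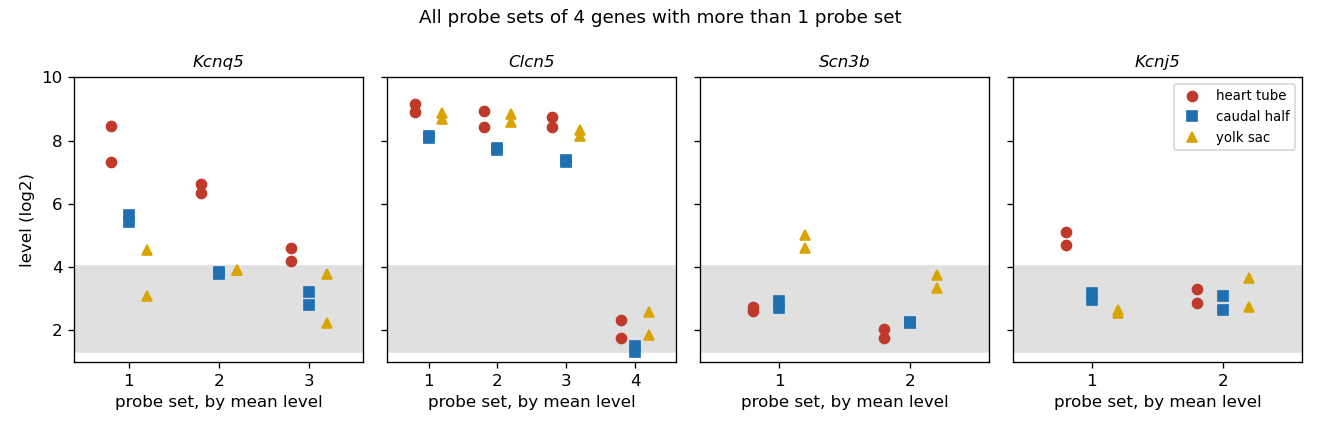
Level (read as RMA log2) on each array of every probe set of Kcnq5, Clcn5, Kcnj5 and Scn3b, 1 point per array, coloured by tissue. The brightest and the second Kcnq5 probe set both place the heart tube above the other tissues, whereas the second Kcnj5 probe set reads 2.63 to 3.66 in all tissues.

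Kcnh3, of the ether-a-go-go family known from forebrain, read 6.09 and 5.91 in heart tube cells, 6.23 and 6.27 in caudal-half cells and 6.05 and 6.17 in yolk sac cells. Kcng2, a silent subunit that modifies Kv2 channels, read 5.97 and 5.53, then 6.11 and 6.24, then 6.06 and 6.09, in that order. Kcnc4, a fast-inactivating Kv3 channel, read 5.69 and 5.45, then 5.38 and 5.24, then 6.02 and 5.44. None of these 3 passed in a comparison. Kcna5, the channel of the ultrarapid current of the atrium, lay under the threshold at 4.64 and 3.54 in heart tube cells, 3.42 and 3.61 in caudal-half cells and 2.73 and 2.34 in yolk sac cells, with 5 of the 6 arrays in the bacterial range. It was higher in heart tube cells than in yolk sac cells by 1.55 ± 0.36 (adjusted p = 0.0415). That call was lost without the first heart tube array or without any 1 of the caudal-half or yolk sac arrays (adjusted p 0.0757 to 0.148).

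Accessory subunits change how a potassium channel opens. Kcne3 encodes MiRP2, a single-span subunit that keeps its partner channels open in epithelia and joins Kv channels in muscle. It read 9.02 and 9.25 in caudal-half cells, 5.42 and 6.11 in heart tube cells and 6.69 and 6.75 in yolk sac cells. The 3 tissues did not overlap, with mean levels of 9.13 ± 0.16, 5.76 ± 0.49 and 6.72 ± 0.04 (SD, n = 2). The heart tube was lower than the caudal-half tissue by -3.37 ± 0.25 (adjusted p = 0.00128), and the caudal-half tissue was higher than the yolk sac by 2.42 ± 0.25 (adjusted p = 0.0037). Both calls held under all 12 alternatives. Kcne3 has 1 probe set, so the mean of probe sets kept its values, and the log2 scale cannot change a p-value. Between heart tube and yolk sac the difference was -0.95 ± 0.25 (adjusted p = 0.0619). Of 15 neural markers 2 were higher and 1 lower in caudal-half than in heart tube cells. Against yolk sac cells 3 were higher and none lower. Of 6 somite markers none passed against heart tube cells, and 2 were higher and none lower than in yolk sac cells. Of 5 epithelial markers 4 were higher and none lower in caudal-half than in heart tube cells. Against yolk sac cells none of these 5 were higher and 3 were lower. The part of such cells in the Kcne3 difference was not tested.

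Kcnab1, a beta subunit that speeds inactivation of Kv1 channels, read 5.63 and 5.83 in heart tube cells, 4.54 and 5.19 in caudal-half cells and 5.22 and 5.40 in yolk sac cells. Kcnip3, a calcium-binding partner of Kv4 channels that is also known as the transcriptional repressor DREAM, read 5.13 and 4.77, then 5.71 and 5.32, then 5.11 and 4.56. Kcnip4, of the same family, read 4.93 and 4.85, then 5.52 and 4.88, then 4.79 and 4.85. No comparison of these 3 passed. Kcne1, the partner of the slow delayed rectifier in heart, stayed at 3.98 to 4.32 on all arrays.

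Calcium- and sodium-activated potassium channels link ion entry to repolarisation. Of 11 such genes, 4 exceeded 5 in some tissue and none passed a test. Of all genes, 5.51% passed between heart tube and caudal-half tissue. Against the yolk sac 11.8% passed for the heart tube and 9.08% for the caudal-half tissue. At such shares a set of 11 genes would hold few calls or none. Kcnn3 (SK3), an endothelial channel that hyperpolarises arteries, read 5.83 and 5.13 in heart tube cells, 5.20 and 6.13 in caudal-half cells and 5.40 and 5.63 in yolk sac cells, with the tissues overlapping. Kcnn4 (IK1), its intermediate-conductance partner in endothelium, also carried by red cells and lymphocytes, read 5.11 and 5.75 in heart tube cells, 4.70 and 4.98 in caudal-half cells and 5.0 and 4.97 in yolk sac cells. Kcnmb4, a beta subunit of the large-conductance channel, had replicate gaps as wide as any tissue difference, at 5.53 and 6.24, then 5.83 and 5.50, then 6.06 and 4.29. The pore of that channel, Kcnma1, and its smooth muscle subunit Kcnmb1 were in the bacterial range on every array. Kcnt1, a sodium-activated channel, read 4.74 to 5.11 over all arrays.

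Voltage-gated calcium channels consist of an alpha1 pore with beta, alpha2-delta and, in some, gamma subunits. Of 9 pore genes, Cacna1a and Cacna1e exceeded 5 in some tissue. Cacna1a, the P/Q-type pore of nerve terminals, read 5.67 and 5.62 in heart tube cells, 5.68 and 5.77 in caudal-half cells and 6.60 and 6.07 in yolk sac cells. Both yolk sac arrays were highest, and no comparison passed. Cacna1e, the R-type pore, read 3.77 and 3.48, then 3.99 and 4.24, then 5.83 and 4.44, so that its yolk sac mean rested on the first yolk sac array. Cacna1c, the L-type pore of heart muscle, read 2.38 to 4.06, and Cacna1d, the L-type pore of the sinus node, 3.18 to 5.13, without a call.

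The T-type pores, which open near the resting potential, lay below the threshold. Cacna1h read 4.64 and 4.16 in heart tube cells, 3.29 and 3.32 in caudal-half cells and 2.95 and 3.33 in yolk sac cells, higher in heart tube cells by 1.09 ± 0.23 (adjusted p = 0.0494) and 1.26 ± 0.23 (adjusted p = 0.0185). Cacna1g read 4.29 and 4.02 in caudal-half cells against 3.0 and 3.01 in heart tube cells and 3.39 and 3.62 in yolk sac cells, lower in heart tube cells than in caudal-half cells by -1.15 ± 0.18 (adjusted p = 0.0191). The paralogs differed in opposite directions between these tissues on the probe sets used. Of the 6 arrays, 5 lay in the bacterial range for Cacna1g and 4 for Cacna1h. Cacna1g lost its call without any 1 heart tube or caudal-half array (adjusted p 0.0504 to 0.114), Cacna1h its first call without any 1 of the 6 arrays (0.0576 to 0.224) or with the replicate block (0.0918) and its second without the first heart tube or first yolk sac array (0.0992 and 0.084). A second Cacna1h probe set read 2.80 to 3.33, in the bacterial range, with heart tube differences of 0.26 and 0.15, and the mean of both probe sets gave 0.68 (adjusted p = 0.0947) and 0.71 (adjusted p = 0.0528).

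Among 15 accessory calcium channel genes, 4 exceeded 5 and stayed near it. Cacna2d1, the alpha2-delta subunit of heart and skeletal muscle, read 4.72 and 5.33 in heart tube cells, 3.98 and 5.05 in caudal-half cells and 4.35 and 4.25 in yolk sac cells. Cacna2d2 read 4.92 to 5.30, Cacng8 4.93 to 5.23 and Cacng2 4.90 to 5.07 over all 6 arrays, the latter 2 best known as partners of glutamate receptors. None of these 4 passed. Cacng3 was under the threshold at 3.56 and 3.67 in heart tube cells, 3.52 and 3.81 in caudal-half cells and 4.38 and 4.32 in yolk sac cells, with the 4 embryo arrays in the bacterial range. It was lower in heart tube cells than in yolk sac cells by -0.73 ± 0.18 (adjusted p = 0.0463). That call was lost without any 1 of the 6 arrays (adjusted p 0.0569 to 0.201), with the replicate block (0.0649), with a second quantile normalization (0.0971) and with an intensity trend (0.0732). Cacnb2, the cardiac beta subunit, was in the bacterial range on every array.

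Voltage-gated sodium channels have an alpha pore and beta subunits, which also act in adhesion. Scn8a, of 8 alpha genes the only one over 5, read 5.40 and 5.03 in heart tube cells, 5.65 and 5.85 in caudal-half cells and 5.43 and 5.76 in yolk sac cells, with no call. Scn2b read 5.52 and 6.15 in heart tube cells, 4.61 and 5.10 in caudal-half cells and 4.72 and 5.0 in yolk sac cells. Both heart tube arrays were the highest, and the difference of 0.98 ± 0.28 from the caudal-half tissue did not pass. Scn3b, known from brain and heart and also as a p53 target, read 5.02 and 4.61 in yolk sac cells against 2.73 and 2.63 in heart tube cells and 2.92 and 2.69 in caudal-half cells, both embryo tissues within the bacterial range. The heart tube was lower by -2.14 ± 0.20 (adjusted p = 0.00161) and the caudal-half tissue by -2.01 ± 0.20 (adjusted p = 0.00329). A second Scn3b probe set went the same way, at 3.75 and 3.33 in yolk sac cells against 2.05 and 1.76 and then 2.23 and 2.26, with differences of -1.63 (adjusted p = 0.0072) and -1.29 (adjusted p = 0.0219).

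Both pacemaker channel genes measured, Hcn2 and Hcn3, stayed under 5. Hcn2 was in the bacterial range on all arrays. Hcn3 read 2.58 and 2.66 in heart tube cells, 3.13 and 2.96 in caudal-half cells and 3.86 and 3.36 in yolk sac cells, all within that range, and its heart tube difference from the yolk sac was -0.99 ± 0.21 (adjusted p = 0.0319). That call was lost without any 1 array other than the second yolk sac array (adjusted p 0.0568 to 0.149) and with a second quantile normalization (0.0544).

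TRP channels are cation channels opened by receptors, lipids, heat or stretch. Trpc6 encodes a diacylglycerol-gated calcium entry channel of endothelium, smooth muscle and podocytes. It read 6.78 and 6.47 in heart tube cells, 7.21 and 6.94 in caudal-half cells, and 2.76 and 2.20 in yolk sac cells. Both yolk sac arrays lay in the bacterial range and far below the 4 embryo arrays, by 4.14 ± 0.25 for the heart tube and 4.59 ± 0.25 for the caudal-half tissue. These sizes are a description, because the threshold on level chose Trpc6 through the embryo tissues. The heart tube and the caudal-half tissue were not separated by the test (difference -0.45, adjusted p = 0.381), and Trpc6 has 1 probe set here.

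Trpm4, a calcium-activated channel that passes sodium and is known from cardiac conduction, read 5.80 and 5.53 in heart tube cells, 4.53 and 5.0 in caudal-half cells and 6.44 and 5.96 in yolk sac cells. The caudal-half arrays were lowest, with a difference of -1.43 ± 0.25 from the yolk sac and a heart tube excess of 0.90 that did not pass. The yolk sac difference is a description, since the caudal-half mean of 4.77 lay under the threshold. Its call was lost without the first caudal-half or the first yolk sac array (differences -1.20 and -1.19). Heart tube and yolk sac differed by -0.53 (adjusted p = 0.244). Trpm7, a magnesium- and calcium-permeable channel fused to a kinase, read 8.11 and 8.37, then 8.05 on both arrays, then 8.65 and 8.28, with no call. Trpc2 read 5.05 to 6.10 and Trpc7 4.65 to 5.19 over the 6 arrays, and the yolk sac arrays of each overlapped both other tissues. Trpc1 read 4.55 to 5.03 and Trpv4, the flow- and heat-sensitive endothelial channel, 4.0 to 4.45, both under the threshold.

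**Figure D3:**
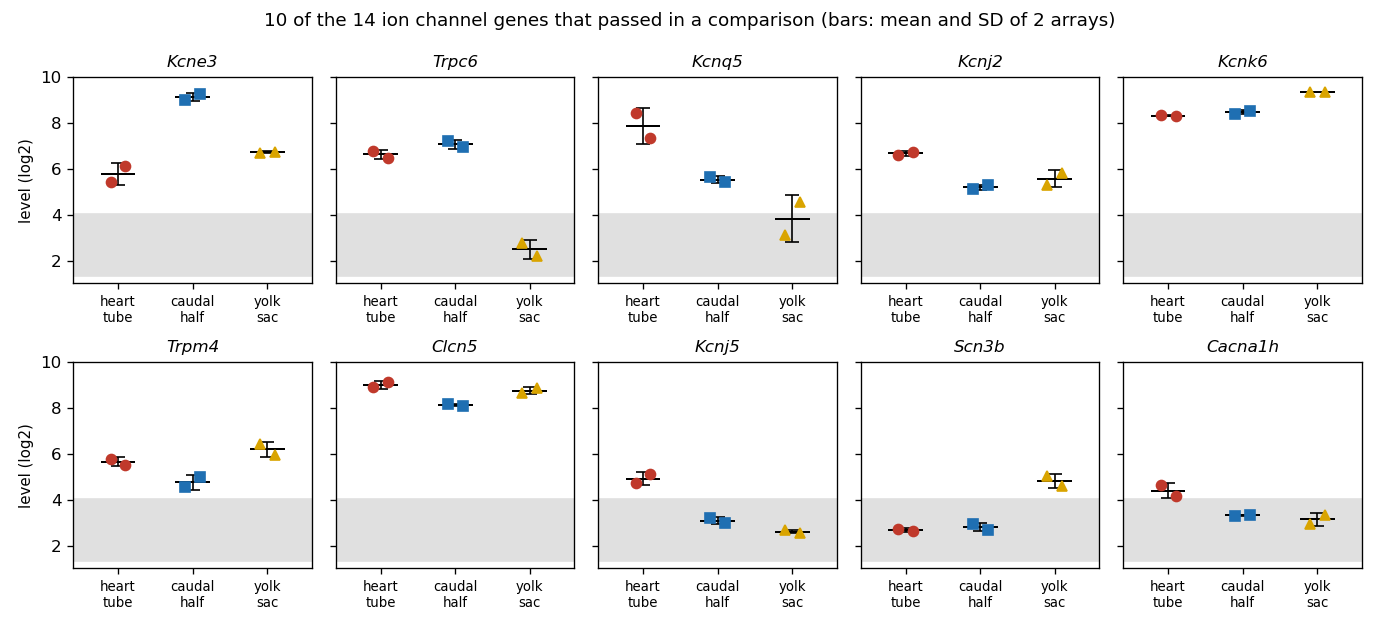
Level (read as RMA log2) on each array of 10 of the 14 ion channel genes that passed the test in at least 1 comparison, with 1 point per array and a bar at each tissue mean. Kcnj2 and Kcnj5 are highest in heart tube cells, Kcne3 in caudal-half cells, Kcnk6 and Scn3b in yolk sac cells, and Trpc6 is lowest in yolk sac cells.

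Of 7 ClC genes, 5 exceeded 5, each in all 3 tissues. Clcn5 encodes an endosomal chloride-proton exchanger needed for endocytosis. It read 8.90 and 9.14 in heart tube cells, 8.15 and 8.09 in caudal-half cells and 8.67 and 8.86 in yolk sac cells. The caudal-half arrays lay below the other 4, the heart tube being higher by 0.90 ± 0.18 (adjusted p = 0.0397), while the yolk sac difference missed the threshold (-0.64, adjusted p = 0.0793). Leaving out any 1 of the 6 arrays (adjusted p 0.0564 to 0.192) or adding the replicate number as a block (0.0622) lost the call. Clcn5 has 3 further probe sets, not used for the choice. In all 3 the heart tube was higher than the caudal-half tissue, but only 1 passed. Values of a non-passing probe set are left out here. On the others, heart tube values were 8.92 and 8.41 against 7.70 and 7.76 in caudal-half cells (difference 0.94, adjusted p = 0.0848), and 8.44 and 8.73 against 7.38 and 7.33 (1.23 ± 0.19, adjusted p = 0.0211). On the latter probe set the caudal-half tissue was also lower than the yolk sac, by -0.89 (adjusted p = 0.0445).

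The remaining ClC genes showed no call. Clcn3, an endosomal exchanger, read 7.64 and 7.67 in heart tube cells, 7.23 and 7.47 in caudal-half cells and 7.13 and 7.12 in yolk sac cells. Clcn7, the lysosomal exchanger, read 7.01 and 6.46, then 6.50 and 6.61, then 6.86 and 7.63. Clcn6, of late endosomes, read 8.52 and 8.05, then 8.74 and 8.61, then 9.02 and 8.66. Clcn4 read 6.46 and 6.87, then 6.38 and 6.87, then 6.95 and 6.47, with tissue means within 0.08 of each other. The Clcn3 arrays did not overlap between tissues, Clcn6 was lowest on both heart tube arrays, the heart tube arrays of Clcn7 overlapped both other tissues, and all tissues overlapped in Clcn4.

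The smallest spans of tissue means belonged to Cacng8 (0.02), Clcn4 (0.08) and Trpc4ap (0.10). Trpc4ap matched by name and encodes a TRPC4-associated protein rather than a channel; it read 5.95 to 6.24. Just inside the threshold lay Kcnt1 (highest tissue mean 5.01), Cacna2d1 (5.03) and Cacng2 (5.04), and just outside it Kcnk3 (4.96), Trpc1 (4.97) and Kcnk7 (4.99). The threshold separates these genes by less than their replicate error.

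Over all 146 named genes, regardless of level, 14 passed the test in at least 1 comparison. Of these, 7 are among the 39 (Clcn5, Kcne3, Kcnj2, Kcnk6, Kcnq5, Trpc6 and Trpm4) and 7 are not (Cacna1g, Cacna1h, Cacng3, Hcn3, Kcna5, Kcnj5 and Scn3b). Between heart tube and caudal-half tissue 6 of the 146 passed (4.11%), beside 5.51% of all genes, with 4 higher in heart tube cells (all genes 2.86%) and 2 lower (all genes 2.65%). Between heart tube and yolk sac 10 passed (6.85%), beside 11.8% of all genes, with 6 higher (all genes 5.14%) and 4 lower (all genes 6.67%). Between caudal-half tissue and yolk sac 5 passed (3.42%), beside 9.08% of all genes, with 2 higher (all genes 4.22%) and 3 lower (all genes 4.86%). The shares among channel genes were thus below the background in each comparison, a gap that was not tested, and 55 of the 146 genes lay within the bacterial range on all 6 arrays, where a difference is hard to see. At an unadjusted p under 0.05, 24, 34 and 18 channel genes passed in this order (16.4%, 23.3% and 12.3%), beside 19.5%, 26.0% and 23.8% of all genes. The comparisons share arrays and are not independent of each other.

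Median differences of the 146 genes were -0.14 between heart tube and caudal-half tissue (all genes -0.08), -0.11 between heart tube and yolk sac (all genes -0.06) and 0.00 between caudal-half tissue and yolk sac (all genes 0.02). Leaving out arrays moved these small counts. The 4 higher heart tube calls against the caudal-half tissue became 1 without the first heart tube array or either caudal-half array, and the 2 lower became 1 without the second heart tube or first caudal-half array and 3 without the second caudal-half array. Against the yolk sac the 6 higher became 3 without the first heart tube or first yolk sac array, and the 4 lower became 2 without either heart tube array. Between caudal-half tissue and yolk sac the 2 higher became 4 without the second caudal-half array, and the 3 lower became 1 without the first array of either tissue.

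**Figure D4:**
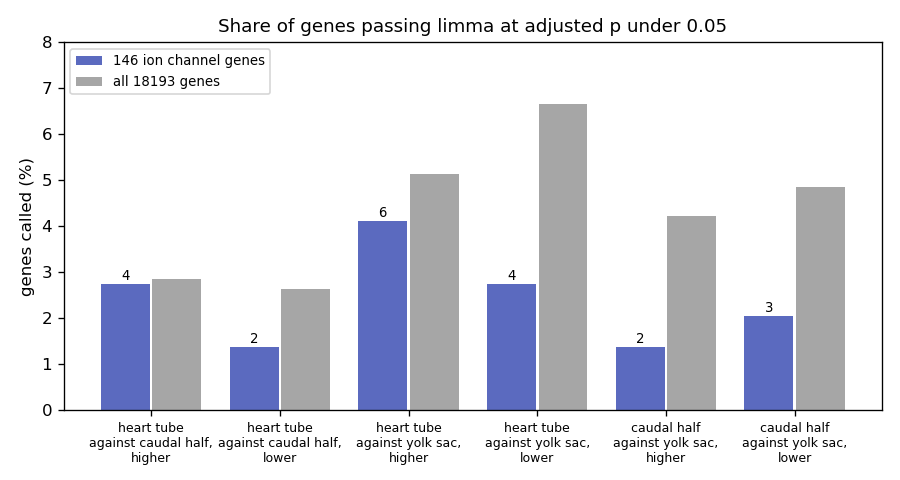
Percent of the 146 ion channel genes and of all 18193 genes that passed the test (limma, adjusted p under 0.05), higher and lower, in each comparison. The channel bars, which stand for 2 to 6 genes each, are below the bars of all genes.

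Among 39 channels listed by name for their known roles in heart, endothelium or blood, 34 were measured and 13 had a tissue mean over 5. Of the 34, 8 were in the bacterial range on every array: Kcnj3, Kcnj8, Kcnd2, Kcnma1, Kcnmb1, Hcn2, Cacnb2 and Trpv2. Kcnh2, the rapid delayed rectifier of heart, read 3.83 to 4.25, Kcnd3 of the transient outward current 3.50 to 4.91, and Kcnk3 (TASK-1) 4.56 to 5.20. A low reading depends on the probes as well as on the RNA and does not show that a transcript is absent.

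Genes that work beside the channels were read from 4 lists, chosen with earlier results known, with 116 measured genes. In heart tube cells 4 of them (3.45%) were higher and 2 (1.72%) lower than in caudal-half cells, beside 2.86% and 2.65% of all genes. Against yolk sac cells 6 (5.17%) were higher and 19 (16.4%) lower in heart tube cells, beside 5.14% and 6.67% of all genes. Between caudal-half and yolk sac cells 3 (2.59%) were higher and 12 (10.3%) lower, beside 4.22% and 4.86% of all genes. The 19 fell to 8 without the first heart tube array, 10 without the first yolk sac array and 12 without any 1 of the other 4, and the 12 fell to 5 or 7 without either caudal-half array and to 8 or 7 without either yolk sac array. Visceral endoderm markers were higher in yolk sac cells as well, by the levels given above, and their part in these counts was not tested.

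Calcium is stored in the reticulum and cleared by pumps and exchangers that work beside the channels. Of 31 measured genes of this kind, 2 were higher and none lower in heart tube than in caudal-half cells (all genes 2.86% and 2.65%). Against yolk sac cells 2 were higher and 3 lower in heart tube cells (all genes 5.14% and 6.67%), and none higher and 2 lower in caudal-half cells (all genes 4.22% and 4.86%). Atp2b4, a plasma membrane calcium pump, read 5.10 and 5.21 in heart tube cells, 3.17 and 3.90 in caudal-half cells and 2.66 and 3.09 in yolk sac cells. Its heart tube level was higher by 1.62 ± 0.28 (adjusted p = 0.0266) and 2.28 ± 0.28 (adjusted p = 0.00444), the first lost without either heart tube array or the first caudal-half array (adjusted p 0.0988 to 0.136). Itpr2, a store release receptor, was higher in heart tube cells than in caudal-half cells by 1.63 ± 0.30 (adjusted p = 0.0318). That call was lost without any 1 array other than the second caudal-half array, or with the replicate block (0.0505 to 0.157), and the mean of Itpr2's probe sets gave 0.88. Slc8b1, the mitochondrial sodium-calcium exchanger, was lower in heart tube cells than in yolk sac cells by -1.42 ± 0.31 (adjusted p = 0.0328), a call lost without any 1 array other than the second yolk sac array or with a second quantile normalization (0.053 to 0.152). Ryr2, the release channel of heart muscle, read 2.70 to 3.54 on all arrays, in the bacterial range.

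The sodium-potassium pump maintains the gradients that channels use. Of 15 measured genes for this pump and for exchangers and cotransporters, none passed between heart tube and caudal-half tissue (all genes 5.51%). Against yolk sac cells 1 was higher and 3 were lower in heart tube cells (all genes 5.14% and 6.67%), and 2 higher and 3 lower in caudal-half cells (all genes 4.22% and 4.86%). Slc9a3r1, a scaffold for sodium-proton exchangers and CFTR, read 10.09 and 10.17 in yolk sac cells against 7.79 to 8.07 on the 4 embryo arrays. Fxyd2, the gamma subunit of the pump known from kidney, read 6.75 and 6.47 in yolk sac cells against 4.58 to 4.99, and Fxyd6, another pump regulator, read 5.32 and 5.12 against 6.80 to 6.93. Slc12a2 (NKCC1), a sodium-potassium-chloride cotransporter, read 9.36 and 9.35 in caudal-half cells, 8.18 and 8.42 in heart tube cells and 7.82 and 7.23 in yolk sac cells. Among these, the yolk sac had the higher Slc9a3r1 (-2.25 for the heart tube, -2.07 for the caudal-half tissue) and Fxyd2 (-1.74 and -1.82), and the lower Fxyd6 (1.65 and 1.67).

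Channels outside the named families numbered 43 measured genes. Against the caudal-half tissue 1 was higher and 1 lower in heart tube cells (all genes 2.86% and 2.65%). Against the yolk sac 1 was higher and 8 lower in heart tube cells (all genes 5.14% and 6.67%), and 1 higher and 5 lower in caudal-half cells (all genes 4.22% and 4.86%). Ano1, a calcium-activated chloride channel, read 7.30 and 8.09 in heart tube cells, 3.32 and 3.95 in caudal-half cells and 3.62 and 4.41 in yolk sac cells. The heart tube was higher by 4.06 ± 0.39 (adjusted p = 0.00283) and by 3.68 ± 0.39 (adjusted p = 0.00233). Piezo2, a stretch-activated channel of touch neurons, read 9.58 and 9.69 in caudal-half cells, 6.20 and 6.42 in heart tube cells and 7.58 and 7.38 in yolk sac cells, so that its order of tissues was that of Kcne3. The heart tube was lower than the caudal-half tissue by -3.32 ± 0.18 (adjusted p = 0.000504), and Piezo1, the flow sensor of endothelium, read 8.22 to 9.07 in all tissues. Clic6, an intracellular chloride channel protein, read 7.22 and 7.37 in yolk sac cells against 3.97 to 4.98 on the embryo arrays, and Clic5 4.89 and 5.41 against 2.94 to 3.65. Mcoln2, an endolysosomal channel, was lower than in the yolk sac by -1.67 in heart tube and -1.31 in caudal-half cells, the latter lost without either caudal-half or the second yolk sac array (adjusted p 0.0506 to 0.0771). P2rx4, an ATP-gated channel, was lower by -1.09 and -1.50. Its heart tube call was lost without the first heart tube or first yolk sac array (adjusted p = 0.0909 and 0.0695), and the mean of its probe sets gave -0.49 (adjusted p = 0.0698) and -0.71.

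Of 27 measured regulators and anchors of channels, 1 was higher and 1 lower in heart tube than in caudal-half cells (all genes 2.86% and 2.65%). Against yolk sac cells 2 were higher and 5 lower in heart tube cells (all genes 5.14% and 6.67%), and none higher and 2 lower in caudal-half cells (all genes 4.22% and 4.86%). Abcc9 encodes SUR2, the sulfonylurea receptor that pairs with Kir6.1 or Kir6.2. It read 2.42 and 3.71 in heart tube cells, 6.92 and 6.72 in caudal-half cells and 8.03 and 7.81 in yolk sac cells. The heart tube was lower by -3.76 ± 0.40 (adjusted p = 0.00436) and -4.85 ± 0.40 (adjusted p = 0.000929). Both calls held under all 12 alternatives, though the log2 scale could not change a p-value. Of its pore partners, Kcnj11 did not pass in any comparison and Kcnj8 stayed in the bacterial range. Fgf13, an intracellular partner of sodium channels, was higher in heart tube cells by 1.63 ± 0.26 (adjusted p = 0.0195) and 1.65 ± 0.26 (adjusted p = 0.0105). The first Fgf13 call was lost without either heart tube or the second caudal-half array (0.0668 to 0.116) and the second without the second heart tube or second yolk sac array (0.0682 and 0.052). Cav1, the coat protein of caveolae, was lower in heart tube cells than in yolk sac cells by -1.68 ± 0.22 (adjusted p = 0.0053).

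**Figure D5:**
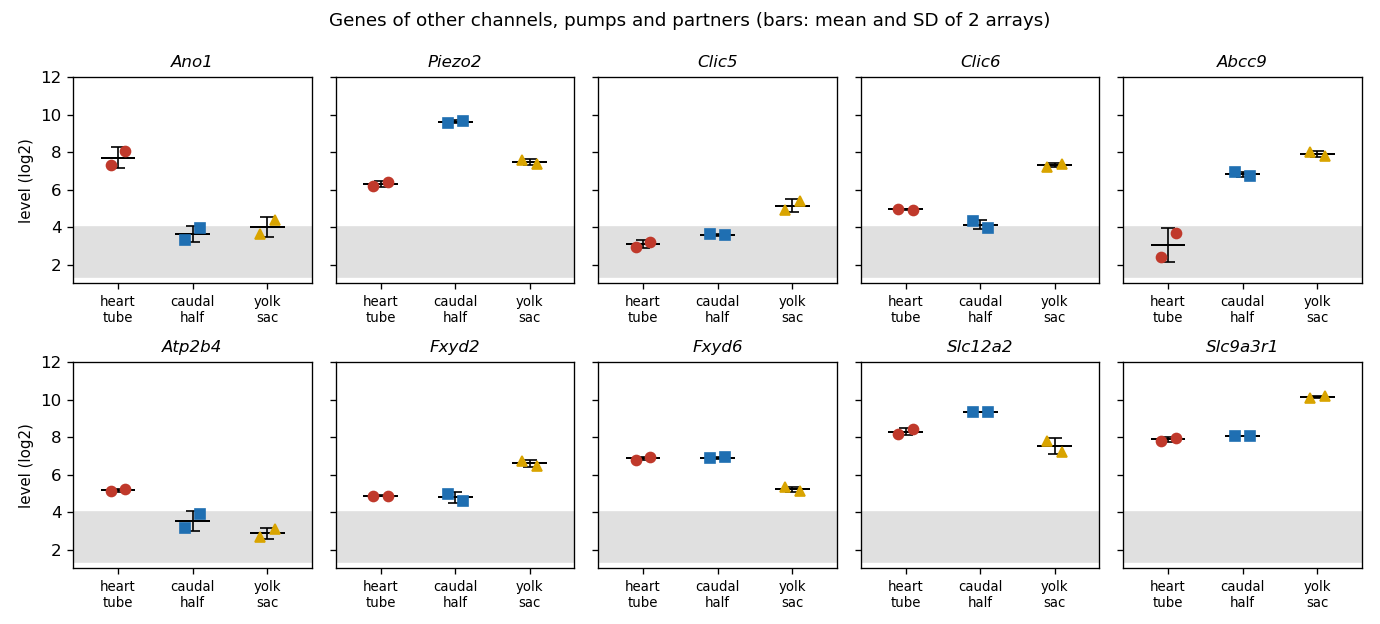
Level (read as RMA log2) on each array of genes that work beside the ion channels, 1 point per array, coloured by tissue. Ano1 is highest in heart tube cells (7.30 and 8.09), Piezo2 in caudal-half cells (9.58 and 9.69), and Abcc9 is lowest in heart tube cells (2.42 and 3.71).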

How the data were processed

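The authors deposited 1 signal per probe set and array, made with RMA in affy, per the submitters' processing notes (no versions or filters are named in the sources used here). The values span 2.46 to 2172540, and log2 of the highest (21.1) would exceed a 16-bit scanner's range, so the natural log was read as RMA log2.

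Of 45101 probe sets, 34945 without controls carried 1 symbol in the platform annotation, 932 carried several and 9211 none (not named here). A gene was represented by its probe set with the highest mean. The 146 channel genes had 305 probe sets and all matched the GRCm38.p6 gene table by Entrez identifier.

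limma 3.58.1 in R 4.3.3 was fitted to 18193 genes and all 6 arrays (3 residual and 3.48 prior degrees of freedom, two-sided, Benjamini-Hochberg over all genes, called under 0.05) and was tested on simulated data. The median standard error was 0.210, and the number of arrays limits precision. No adjusted p is given for the genes chosen by level where a compared tissue's mean was not over 5. Adjusted p-values of a gene's further probe sets were taken over all 34945 probe sets. Genes named: up to 8 called per direction and comparison, the highest, steadiest and threshold neighbours, known channels, and up to 3 called per related list. The members and lists were chosen with earlier results of these data known. Names without a probe set of their own, and some others, are not reported here.

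Deviations of same-numbered arrays correlated at -0.00681 to 0.0468, so little deviation was shared by replicate number. These values cannot show whether same-numbered arrays shared embryos or a batch.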

Additional observations from a re-analysis of the deposited data

How the results depend on the processing

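With 12 alternatives, 21 channel gene calls were recomputed: 9 held under each alternative that tested them (Kcne3 and Trpc6 in 2 comparisons each, Kcnq5 in 1, Kcnj5 and Scn3b in 2 each, these last not tested with the minimum mean of 5), 12 were lost under some and 0 reversed. Among the 9, the Trpc6 and Kcnq5 calls are a description, since both genes lay under the level threshold in yolk sac cells. With 2 arrays per tissue, leaving 1 out assumes that the lone array varies like the other tissues. Of 46 calls in the related lists, 22 held throughout. The mean of probe sets kept the values of Kcne3 and Trpc6, which have 1 probe set each. The log2 scale lost 0 calls, as rescaling cannot change a p-value, and a second quantile normalization lost 2 of the 21 channel calls. Causes of these changes were not tested.

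Channel counts changed as follows. Between heart tube and caudal-half tissue, higher calls went from 4 to 2 with the replicate block, which lost 3 of the 21 calls. Whether the replicate numbers pair the arrays is not known here. Lower calls went from 2 to 1 with a minimum mean of 5 and to 4 with the mean of a gene's probe sets. The minimum mean left dimmer genes out of the fit, and all 11 channel calls that it still tested held. Between heart tube and yolk sac, higher calls went from 6 to 3 with the minimum mean, and lower calls from 4 to 2 with it, to 7 with the mean of probe sets, to 2 with the second normalization and to 8 with an intensity trend. Between caudal-half tissue and yolk sac, the mean of probe sets gave 4 higher (from 2) and 5 lower (from 3). In the related lists, the trend gave 7 higher (from 4) and 5 lower (from 2) between heart tube and caudal-half tissue, and the minimum mean and the mean of probe sets each gave 4 lower.

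With 1 array left out, channel counts ranged, higher and lower, from 1 to 4 and 1 to 3 (heart tube against caudal-half tissue), 3 to 8 and 2 to 6 (heart tube against yolk sac) and 2 to 4 and 1 to 3 (caudal-half tissue against yolk sac). Related counts ranged from 1 to 4 and 2 to 4, 3 to 6 and 8 to 12, and 3 to 4 and 5 to 12, in the same order.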
